A study of Homo sapiens with 3 samples.

Results

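HMGA1 peaks were described around ETV6 and CDKN1B on the short arm of human chromosome 12, where 210 of the 385953 HMGA1 peaks called over input DNA and 149 of the 263033 called over histone H3 had their summit between 11.3 and 13.5 Mb (hg19), an interval of 2.2 Mb. The peaks were chosen by position alone. ETV6 lies at chr12:11802788-12048325 and CDKN1B at chr12:12870302-12875305, both on the plus strand. The study made 3 libraries from DAMI cells, an established human line of leukaemic cells whose disease label reads MPN/AML, for myeloproliferative neoplasm and acute myeloid leukaemia: 1 ChIP with an HMGA1 antibody, 1 ChIP with an H3 antibody and 1 input DNA sample without antibody. No treatment or genetic change is named in the labels, and every library comes from this 1 line. No library has a replicate, so no test was made and intervals cover counting error only. Both peak lists use the same HMGA1 library, which means that a peak found in both is not a replicate.

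HMGA1 is an architectural chromatin protein whose AT-hooks grip the minor groove of AT-rich DNA. ETV6, also called TEL, is an ETS-family transcriptional repressor that blood stem cells need to persist in the bone marrow, and that is needed for normal platelet production. It is a partner in recurrent leukaemic fusions. CDKN1B encodes p27, an inhibitor of cyclin-dependent kinases that holds cells in G1, and deletions of this chromosome arm in leukaemia often span both genes. In the RefSeq gene order, 7 protein-coding genes lie between them: BCL2L14, LRP6, MANSC1, BORCS5, DUSP16, CREBL2 and GPR19. After CDKN1B the order goes on with APOLD1, DDX47, GPRC5A and GPRC5D. That order comes from GRCh38.p14 and was used for names only. Peaks in hg19 were therefore not assigned to any of these neighbouring genes, nor to exons or introns of ETV6. A distance from CDKN1B does not tie a peak to that gene.

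The sequences just before both gene starts are shown because HMGA1 favours A and T bases. Each gives the 250 bases before the gene's RefSeq start on the plus strand of GRCh38.p14, read 5′ to 3′, with every run of at least 6 A or T bases in capitals. The ETV6 sequence spans chr12:11649424-11649673 and the CDKN1B sequence chr12:12717118-12717367 in that build. These coordinates were not carried over to hg19, and no peak was placed on these bases.
ETV6: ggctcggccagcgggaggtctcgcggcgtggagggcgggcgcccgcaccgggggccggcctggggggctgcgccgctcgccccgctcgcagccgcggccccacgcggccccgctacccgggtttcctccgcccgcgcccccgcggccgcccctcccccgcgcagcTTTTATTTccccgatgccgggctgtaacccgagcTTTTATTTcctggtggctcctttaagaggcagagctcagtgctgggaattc
CDKN1B: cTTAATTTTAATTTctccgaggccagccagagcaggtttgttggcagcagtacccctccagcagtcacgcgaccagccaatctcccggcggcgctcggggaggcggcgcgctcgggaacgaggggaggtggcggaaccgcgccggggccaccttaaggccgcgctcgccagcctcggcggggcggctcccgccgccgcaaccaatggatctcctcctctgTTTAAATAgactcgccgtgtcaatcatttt
The ETV6 sequence was 25.6% A or T, and the CDKN1B sequence 35.6%, against a median of 42.0% over the 35116 RefSeq promoters of the same length. Of all these promoters 11.6% had an A and T share as low as that of ETV6 or lower, and 34.6% one as low as that of CDKN1B. Both nevertheless held 2 runs of at least 6 A or T bases. The longest was 8 bases before ETV6 and 13 bases before CDKN1B, and 58.7% of all promoters held at least 1 such run. A run is a description of the letters and not a binding site. Whether base content bears on the peaks near these starts was not tested.

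The interval as a whole was sparser in HMGA1 peaks than the autosomes. It held 9.55 peaks per 100 kb over input, against 13.2 on the autosomes and 15.3 on the rest of chromosome 12. Over H3 the values were 6.77, 9.09 and 11.3 peaks per 100 kb. Cut into tiles of 2.2 Mb, the autosomes had 1255 tiles with a peak, with a median of 260 input-list peaks (quartiles 163 and 402), and 37.9% of them held no more than the 210 found here. In the H3 list the median tile held 164 (quartiles 90.5 and 279), and 45.1% of the tiles held no more than 149. On chromosome 12 alone 30.0% of the tiles held no more in either list. The interval was thus below the median tile in both lists, only a little so over H3, and between the quartiles.

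Individual peaks were close to the lists as a whole in height. The fold, which is the authors' own value for HMGA1 over the control at the summit, had a median of 4.46 over input (quartiles 3.78 and 5.73) against 4.5 in the whole list, and of 5.06 over H3 (4.18 and 6.02) against 5.25. A fold of at least 4 over input was reached by 143 of 210 peaks (68.1%), against 63.5% of the whole list. Over H3 it was reached by 120 of 149 (80.5%), against 83.8%. Both shares were close to those of the lists. HMGA1 reads at each summit were worked back from the fold and p-value of its peak. They had a median of 21 over input (lowest 9, highest 69), against 19 in the whole list. The median width was 264 bp over input against 297 bp in the list, and 255 bp against 283 bp over H3.

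**Figure D1:**
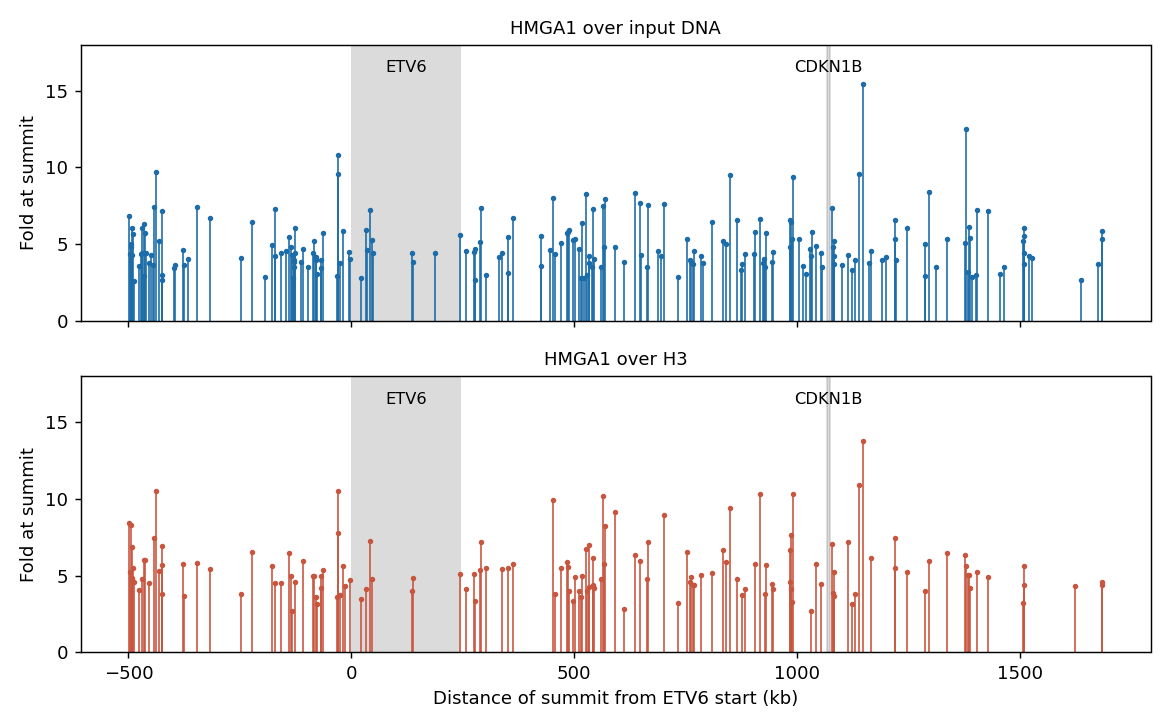
Fold of HMGA1 over input DNA (upper panel) and over H3 (lower panel) at each peak summit, against the distance of the summit from the ETV6 start in kb; each stem is 1 peak and grey bands mark the gene bodies. Stems thin out across ETV6 in both panels, none stands in CDKN1B, and the highest, with a fold of 15.4 over input and 13.8 over H3, stands 79.9 kb after the CDKN1B start.

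Peaks were sparse inside ETV6. Its 245.5 kb held 10 input-list and 7 H3-list peaks, or 4.07 and 2.85 per 100 kb, and peaks covered 0.981% and 0.62% of its length, against 4.83% and 3.13% of the autosomes. Of the autosomal tiles of this length that held a peak, 13.6% held no more than 10 input-list peaks and 20.6% no more than 7 H3-list peaks. The median tile held 29 and 18. On chromosome 12 alone 9.18% and 13.1% of such tiles held no more, and the median tile held 35 and 25. Such low counts were therefore uncommon but not rare. Laid end to end from the ETV6 start, the 2 stretches of the same length before the gene held 27 and 34 input-list peaks, and the 5 after it held 21, 28, 24, 32 and 17, so ETV6 was the lowest of the 8. In the H3 list ETV6 was again the lowest of the 8, with 18 and 23 peaks before it and 15, 24, 19, 21 and 11 after it.

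**Figure D2:**
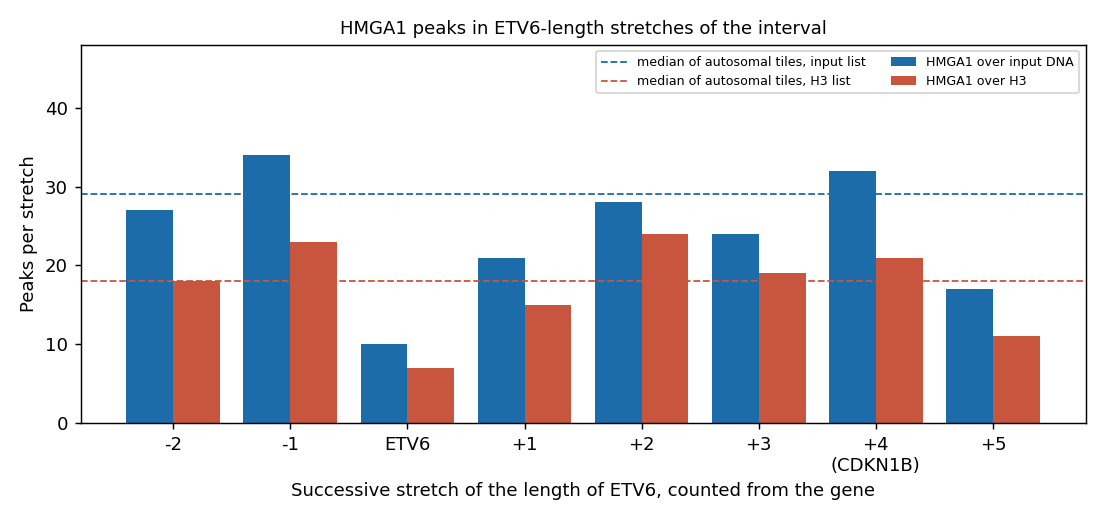
Number of HMGA1 peaks in 8 successive stretches of 245.5 kb, laid from the ETV6 start, over input (blue) and over H3 (red); dashed lines mark the median of autosomal tiles of that length that hold a peak, 29 and 18. ETV6, with 10 and 7 peaks, is the lowest of the 8 stretches in both lists.

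Inside ETV6 the peaks were uneven, with more in the stretch nearest its 5′ end than in any other. Of the 10 input-list peaks 5 lay in the 49.1 kb nearest the start, and the next 4 stretches of 49.1 kb held 1, 2, 1 and 1. The H3 list had 4, 0, 2, 0 and 1. The highest peak in the gene was chr12:11843686-11843990, 41.0 kb after the start, with 32 HMGA1 reads, a fold of 7.24 over input and a −log10 q of 17.4. Over H3 the same site had a fold of 7.23. It ranked 19 of 210 by q-value in the interval over input and 20 of 149 over H3, so even the gene's leading peak stood behind sites in the flanks and between the genes.

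The other leading ETV6 peaks over input were lower. The peak at chr12:11834361-11834633 had 25 reads and a 5.92-fold enrichment over input, 31.7 kb after the start. It was followed at 47.0 kb by chr12:11849695-11849953 (23 reads, 5.26-fold), and near the 3′ end of the gene, 244 kb after the start, by chr12:12046619-12046903 (21 reads, 5.6-fold). The fifth by q-value was chr12:11837223-11837434, with 19 reads and 4.6-fold, and it had no counterpart over H3. Along the gene these leading peaks fell into a group between 31.7 and 47.0 kb and a single site close to the end.

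The remaining 5 input-list peaks of ETV6 held between 14 and 20 HMGA1 reads. The peak nearest the start, at chr12:11824403-11824616, was the lowest in the gene, with 14 reads, a fold of 2.75 over input and one of 3.45 over H3. A pair of neighbouring peaks 137 and 138 kb after the start held 19 and 20 reads and was found in both lists. The peaks at 49.5 and 188 kb held 19 and 18 reads and were found over input only. All 7 H3-list peaks of the gene overlapped an input-list peak, and the 5 with the highest q-value over H3 were those starting at 11843727, 11849708, 12046644, 11940293 and 11834364. Their folds over H3 were 7.23, 4.77, 5.13, 4.82 and 4.13. Folds are not comparable between the lists, because HMGA1 reads were multiplied by 0.787 before the comparison with H3.

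In each list the second longest peak-free gap of the interval lay inside ETV6. Over input no summit was called from 11852290 to 11939311 in the gene, a gap of 87.0 kb. By count, 0.391% of the gaps between neighbouring summits on the autosomes were as long or longer, and these took up 10.6% of the length. Over H3 it was another gap, of 106 kb, from 11940350 to 12046771. There 0.794% of autosomal gaps were as long or longer, and these took up 16.4% of the length between summits. The stretch of the 87.0 kb input gap was also free of summits over H3, from 11849788 to 11939311. That H3 gap ranked just below the 3 longest. The 2 other gaps among the 3 longest over input lay in the flanks, at 109 kb (from 13330184) and 69.3 kb (from 11484737). Over H3 they measured 115 kb (from 13311836) in the downstream flank and 90.9 kb (from 12164889) between the genes. The median gap was 5.59 kb over input in the interval and 3.21 kb on the autosomes. Unassembled stretches were not left out of gap lengths, so the shares of length given here and below include them.

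No peak summit stood within 3 kb of the ETV6 start. The nearest was 3.65 kb before it, at chr12:11799029-11799278 over input, with 21 reads, a fold of 4.01 over input and one of 4.72 over H3. At 5.28 kb before the start chr12:11797390-11797619 held 20 reads and was 4.46-fold over input, with no counterpart over H3. These were the only peaks within 10 kb of the start, 2 over input and 1 over H3, and both stood on its 5′ side. After the start the first summit came 21.6 kb into the gene. The start thus lay in a gap of 25.3 kb in both lists. Gaps at least this long made up 4.97% of all autosomal gaps over input and 9.15% over H3, and they took up 36.1% and 51.7% of the length between neighbouring summits.

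A pair of high peaks stood farther upstream of ETV6. At 30.7 kb before the start chr12:11771951-11772296 held 46 HMGA1 reads, with a fold of 10.8 over input and one of 10.5 over H3. At 30.0 kb before it chr12:11772462-11772952 held 40 reads, with a fold of 9.58 over input and one of 7.77 over H3. The former ranked 3 by q-value in the interval over input and 2 over H3, and both had more reads than any peak inside ETV6. A peak 14.7 kb before the start, from 11788047, was called over H3 only, with 18 reads and a fold of 4.32.

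**Figure D3:**
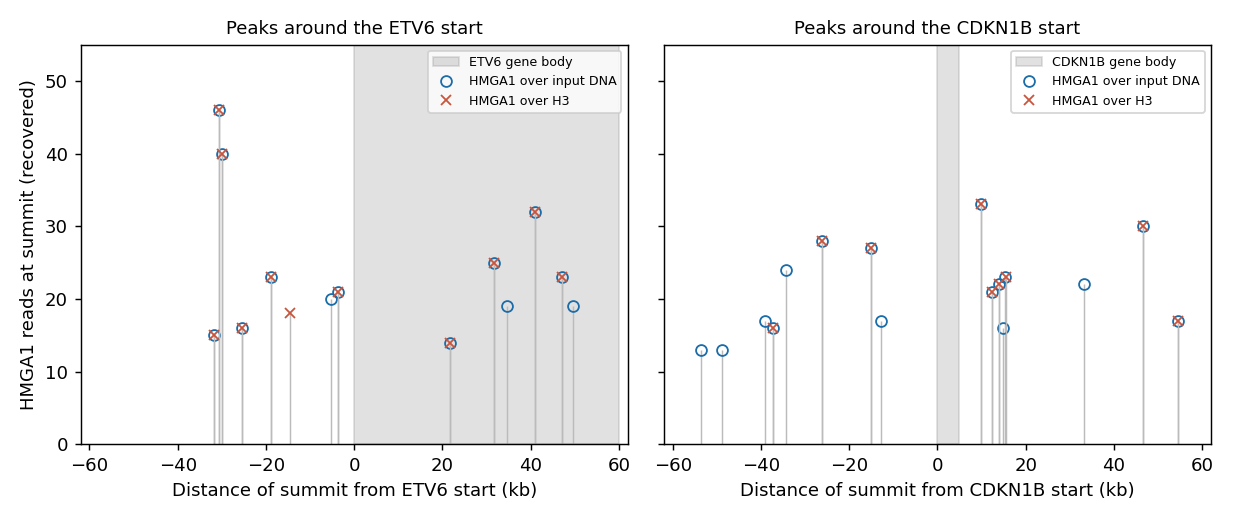
HMGA1 reads at each peak summit within 60 kb of the start of ETV6 (left) and of CDKN1B (right), against the distance from the start in kb; circles are peaks called over input, crosses peaks called over H3, and grey bands are the gene bodies. The pair with 46 and 40 reads stands about 30 kb before ETV6, while the CDKN1B body is empty and its nearest summit, with 33 reads, lies 9.92 kb after the start.

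CDKN1B held no peak in either list. The gene is short, at 5004 bp, and an empty stretch of that length is common. Of all autosomal tiles of 5004 bp, peak-free and unassembled stretches included, 58.3% held no input-list summit and 69.0% no H3-list summit. The count of 0 therefore does not set CDKN1B apart from most of the genome. It also does not show that HMGA1 was absent there. Sites under 8 reads over input or 11 reads over H3 were called nowhere in the lists, and the lowest peaks of this interval held 9 and 12.

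The peak nearest CDKN1B lay beyond its 3′ end. At chr12:12880111-12880595 a peak of 485 bp had its summit 9.92 kb after the gene's start and 4.92 kb after its end, with 33 HMGA1 reads, a fold of 7.35 over input and one of 7.09 over H3. It ranked 17 over input and 22 over H3 by q-value in the interval. It was the only peak within 10 kb of the CDKN1B start in each list. Just beyond it followed 4 more input-list peaks, 12.4, 13.9, 14.9 and 15.4 kb after the start, with 21, 22, 16 and 23 reads. All but the one with 16 reads were also called over H3.

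On the 5′ side of CDKN1B the nearest input-list summit was 12.8 kb before the start, at chr12:12857425-12857611, with 17 reads and 3.49-fold over input. It had no counterpart over H3, where the nearest summit was 15.1 kb before the start, with 27 reads and 4.45-fold over H3. The start thus lay in a gap of 22745 bp over input and of 25025 bp over H3. By count, 5.91% and 9.29% of autosomal gaps were as long or longer. Such gaps took up 39.1% and 52.0% of the length between neighbouring summits, unassembled stretches included. By this length a position in one was not unusual. In both lists the summit nearest this start stood on its 3′ side, whereas the one nearest the ETV6 start stood on its 5′ side.

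Between the genes, over 821976 bp, the density rose again to 10.6 peaks per 100 kb over input (87 peaks) and 8.15 over H3 (67 peaks). The median fold was 4.61 over input with 22 reads, against 4.5 and 19 in the whole list, and 62 of the 87 (71.3%) reached a fold of at least 4, against 63.5%. Of its input-list peaks 74.7% also had an overlapping peak over H3 (95% Wilson interval 64.7 to 82.7), and the whole-list share of 65.8% lay inside that interval. The interval for ETV6, with 7 of 10 peaks, was wide, from 39.7 to 89.2, and the 2 segments were not tested against each other.

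The 5 highest peaks between the genes by q-value, though not all of them by fold, were the same sites in both lists, in another order. Over input they were led by chr12:12651181-12651550, 849 kb after the ETV6 start, with 42 HMGA1 reads and a 9.5-fold enrichment. It was followed by chr12:12793988-12794340 (41 reads, 9.35-fold over input), 76.1 kb before the CDKN1B start. The third was chr12:12719705-12720038, 150 kb before the CDKN1B start, with the most reads of the segment's 5 leading sites, 47, but only 6.64-fold over input. The other 2 were chr12:12255687-12256058 with 39 reads and chr12:12366051-12366388 with 40 reads, at 8.01-fold and 7.47-fold over input.

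Over H3 the order between the genes changed with the control. The site from 12719705 led there, at 10.3-fold over H3. Its input control stood at 2.24 times the lowest level that the caller allows, while its H3 control stood at 1.22 times. The site from 12366051 likewise had an input control of 1.61 times this floor and an H3 control at the floor. The 3 other sites had folds of 10.3, 9.94 and 9.41 over H3. All 5 had equal HMGA1 reads in both lists, and these were multiplied by the same factor over H3, so the new order followed the control levels.

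The single highest peak of the interval lay in the flank beyond CDKN1B. At chr12:12949990-12950451, 79.9 kb after the CDKN1B start, HMGA1 had 69 reads, a fold of 15.4 over input and one of 13.8 over H3. It ranked 467 among all 385953 input-list peaks and 728 among all 263033 H3-list peaks by q-value. The next over input, chr12:13180333-13180942, held 49 reads and ranked 3254. The third in this flank, chr12:12941937-12942223, stood 71.7 kb after the CDKN1B start with 44 reads and 9.59-fold over input, and it was second in this flank over H3 at 10.9-fold.

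The peak from 13180333 had 49 HMGA1 reads in both lists. Over input it was 12.5-fold and ranked 2 of 210 in the interval by q-value. Over H3 it was 5.65-fold, above the H3-list median of 5.25, and ranked 17 of 149. Its input control was 1.08 times the floor and its H3 control 2.74 times. On the flank before ETV6 the leading site other than the pair near 30 kb was chr12:11365215-11365663, 437 kb before the gene, with 44 reads, a fold of 9.66 over input and one of 10.5 over H3. That flank was the densest segment, with 67 input-list peaks at 13.3 per 100 kb, while the flank after CDKN1B held 46 at 7.36.

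Control levels at the interval's peaks were a little above those of the rest of chromosome 12 and similar from segment to segment. The median input control at input-list peaks was 1.28 times the floor, against 1.22 on the rest of chromosome 12 and 1.14 in the whole list. It was 1.28 in ETV6, between the genes and in the flank before ETV6, and 1.24 in the flank after CDKN1B. The H3 control at H3-list peaks was 1.2 times its floor, against 1.11 and 1.05. Only 4.29% of the interval's input-list peaks stood at the floor, against 17.9% on the rest of chromosome 12 and 36.9% in the whole list, and over H3 9.4% did, against 32.2% and 42.9%. None of the 10 input-list and 7 H3-list peaks of ETV6 was at the floor. A control level is known only where a peak was called, so the levels in the peak-free gaps of ETV6 were not measured. Where the control is higher, a site needs more HMGA1 reads to be called, and the part of this in the lower density was not tested.

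The input and H3 lists placed 62 summits of the interval on exactly the same base, and HMGA1 reads were equal at all 62. H3 exceeded input by more than 1.5 times, each relative to its floor, at 4 of them (6.45%), against 4.12% of the 114050 such summits of the whole lists. Input exceeded H3 by as much at 5 (8.06%), against 11.8%. Both controls stood at the floor at 0 of the 62, against 22.7% of the whole-list summits, so these shares rest on unlike sets. The highest H3 level among the 62 was 3.2 times the floor, at chr12:11668593-11668957, 134 kb before ETV6, where the input stood at 1.92 times. Here the 26 HMGA1 reads gave 4.26-fold over input and 2.68-fold over H3.

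**Figure D4:**
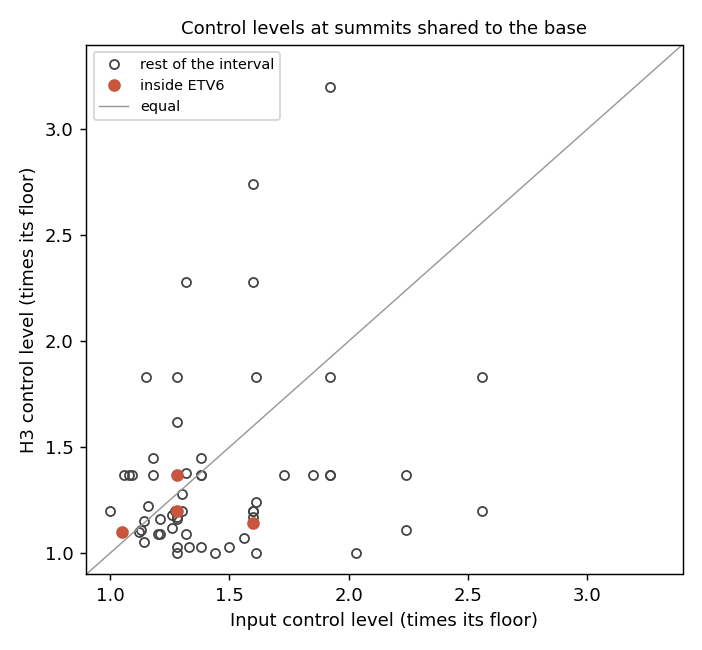
H3 control level against input control level, each as a multiple of its own floor, at the 62 summits of the interval that fall on the same base in both lists; filled points are the 4 inside ETV6 and the line marks equality. Most points lie below 2 times the floor on both axes, and the highest H3 level is 3.2.

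Nearly all of the interval's peaks with many reads were found over both controls. Of the 210 input-list peaks, 145 shared at least 1 bp with an H3-list peak (69.0%, 95% Wilson interval 62.5 to 74.9), against 65.8% of the whole list. In the other direction 146 of 149 did (98.0%, 94.2 to 99.3), against 98.3%. All 60 input-list peaks with at least 25 reads had a counterpart (interval 94.0 to 100), and 54 of 61 with 20 to 24 reads (88.5%, 78.2 to 94.3). With 15 to 19 reads it was 27 of 70, or 38.6% (28.0 to 50.3), where the whole list had 55.4%. In the 3 other classes the list's share lay inside the counting interval of these peaks. The peak with the most reads and no H3 counterpart, picked out after its value was seen, was chr12:12835793-12836033, 34.4 kb before the CDKN1B start, with 24 reads and 5.78-fold over input.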

How the data were processed

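MACS2 and hg19 are named in the submitters' processing notes, and an aligner, version or filter is not given in the sources used here. Of the HMGA1 library the authors deposited 2 peak lists, with input or H3 as control, per the file headers and names. The names of the lists identify the ChIP as HMGA1, although the peak names carry another prefix. For every peak the deposited lists give a fold ratio, a p-value as −log10, a q-value as −log10 (q at most 0.05), a whole-number score and the summit. Members and lists were chosen with earlier results of these data known. Peaks were assigned by summit. Named peaks are those within 10 kb of either start, the 5 highest by q-value in ETV6 and between the genes and the 3 highest in each flank, per list, plus the 3 longest gaps; others were chosen after their values were seen.

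HMGA1 reads and control levels were computed by taking the fold as reads plus 1 over control plus 1, and the p-value as a Poisson tail. All 385953 input-list and 263033 H3-list peaks fitted within 0.001 on the −log10 scale, with HMGA1 multiplied by 0.787 for H3 and control floors of 2.78 and 2.19 reads. A control below 1.005 times its floor counted as at the floor. The method was tested on simulated data. Total reads are unknown, so the effect of depth on peak counts and on the overlap of the lists was not tested. Alternatives were stricter q-values and folds, other overlap rules and other windows. Promoters are RefSeq's, and both genes matched. Coordinates are 1-based. Software was Python 3.11.15 with scipy 1.17.1, numpy 2.4.6, matplotlib 3.10.9 and pandas 2.3.3.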

Additional observations from a re-analysis of the deposited data

How the results depend on the processing

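No paired analysis was possible because there is 1 library per antibody, and leaving out a replicate was not possible either. Of 63 alternatives, 49 were classed as leaving the value the same. For counts this class was wide and not a statistical interval. It took in the fall of the interval's input-list peaks from 210 to 143 at a fold of at least 4. Counting only folds of 4 or more, the input list kept 44 peaks in the flank before ETV6 and 29 in the flank after CDKN1B. Within 5 kb of the starts the input list had 1 peak at ETV6 and 0 at CDKN1B, and the H3 list 0 at CDKN1B. Within 25 kb the input list had 4 and 7, and the H3 list 4 and 5. With a −log10 q of at least 5 in both lists 93.8% of H3-list peaks overlapped an input-list peak. A fold of at least 6 was reached by 21.4% of the interval's and 23.1% of all input-list peaks, and by 25.5% and 31.3% over H3. These changes follow from stricter thresholds or other window sizes. The counts inside ETV6 and CDKN1B stayed within 1.5 times under every alternative run. Sites under 8 reads over input or 11 over H3 were called nowhere in the lists, and the limit is higher where the control is raised.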
